A study of Mus musculus with 7 samples.

Results

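The ligand TNF, its receptors and the NF-κB proteins that act downstream of them were followed in retinal microglia (rMG) labelled Irf8 KO, with and without laser injury. The gene set held 10 genes. They were chosen by name and not by their values, though earlier results of these data were known. The set comprised Tnf, the receptor genes Tnfrsf1a and Tnfrsf1b, and the NF-κB subunit genes Rela, Relb, Nfkb1 and Nfkb2. It also held the regulator genes Nfkbia, Nfkbiz and Tnfaip3. All 10 were found by symbol among the 40743 genes of the expression table. Irf8 encodes an interferon regulatory factor that microglia need to mature. Per the study's methods, both groups consisted of Cx3cr1GFP/+:Irf8-/- mice on a C57BL/6J background, so every mouse carried GFP in 1 Cx3cr1 allele and was bred to lack Irf8 in all cells. The unlasered group comprised 3 libraries from untreated mice. The lasered group comprised 4 libraries, taken 7 days after laser burns that induce choroidal neovascularisation, the growth of vessels from beneath the retina. Each library came from about 10000 CD45lowCD11b+Ly6C-Ly6G- GFP-positive cells pooled from 3 to 4 mice, and in the lasered mice only the central 70% of the retina was used, so that injury and retinal region cannot be told apart. Wild-type libraries were not analysed here.

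TNF is a cytokine that microglia make and sense. It binds a receptor present on most cells, encoded by Tnfrsf1a, and a receptor found mainly on immune and endothelial cells, encoded by Tnfrsf1b. Receptor signalling activates the IKK kinases, which release NF-κB dimers from inhibitors of the IκB family. In the canonical branch Rela pairs with the Nfkb1 product, in the non-canonical branch Relb pairs with the Nfkb2 product, and NF-κB in turn switches on several of its own inhibitors.

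Levels are given in CPM (each gene's reads scaled to a common library total), and libraries held between 20427558 and 45919042 reads, with every lasered library deeper than every unlasered library. Irf8, whose table entry also takes in reads listed jointly with Gm20388, was at 530, 489 and 507 CPM in the unlasered and 463, 465, 475 and 582 CPM in the lasered libraries. The share of these reads that comes from Irf8, or from its deleted part, cannot be separated here, so this entry does not check the knockout and the genotype is given as labelled. The summed level of 15 microglial markers overlapped between the groups (27385 to 32690 CPM unlasered, 25030 to 33334 CPM lasered), and 0 of the 14 tested were called by limma or edgeR, with 5 at an unadjusted p under 0.05 and 1 called by DESeq2 (P2ry12). Sall1, a defining microglial transcription factor, was at or below 1.36 CPM in every library. The study reported Sall1 as strongly lower in Irf8 KO than in control retinal microglia, which were not analysed here. Rod photoreceptor markers summed to 2241, 20039 and 5795 CPM in the unlasered but to 1025, 453, 819 and 326 CPM in the lasered libraries, and 14 of 15 were lower after injury. Border macrophage markers were lower in sum, at 3167 to 3652 CPM against 2108 to 2472 CPM, with Ms4a7 the most abundant. Pf4, Ms4a7 and Clec12a were called lower, but 6 of 9 tested were not called and the median log2 fold change of the list was -0.02. Immediate early genes, which respond to cell handling, overlapped in sum (1329 to 1344 CPM against 988 to 1405 CPM), with 1 of 17 higher and 3 lower. The 10 neutrophil markers summed to 302 to 467 CPM unlasered and 370 to 437 CPM lasered, with Csf3r the most abundant. Of the 4 tested, 1 was called higher (Cxcr2) with a median log2 fold change of 0.50, while Ly6g, Retnlg and Ngp had at most 3 reads in any library. Monocyte markers summed to 104, 39.3 and 117 CPM in the unlasered and 182, 250, 46.2 and 16.2 CPM in the lasered libraries, with Ccr2 the most abundant. Of 8 tested, 0 were called by limma, edgeR or voom and 1 by DESeq2 (Ccr2). Mueller glia and astrocyte markers summed to 459 to 788 CPM unlasered and 187 to 496 CPM lasered. Cone and inner neuron markers summed to 330, 1180 and 340 CPM in the unlasered and 293 to 343 CPM in the lasered libraries. In limma, 1 of 8 tested glial markers was called higher (Gfap) and 1 of 12 tested cone and neuron markers lower (Syt1). The part of these shifts in the results that follow was not tested, and in bulk RNA fewer cells of a type cannot be told apart from less RNA per cell.

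Of the 10 genes, Relb alone rose beyond the threshold after laser injury (adjusted p under 0.05, limma on log2(CPM + 1)). This count of 1 of 10 stands beside 6.93% of the 17496 genes tested that were called in either direction, and 3.86% called higher and 3.07% called lower. At an unadjusted p under 0.05 there were 4 of 10 genes, beside 22.7% of all genes tested. The same genes, Tnfrsf1a, Nfkb2, Relb and Nfkbiz, had groups that did not overlap, 3 higher and 1 lower, beside 21.0% of all genes tested (10.4% higher, 10.7% lower). The median log2 fold change of the 10 genes was -0.02, next to -0.01 over all genes tested, and 5 of the 10 were positive. Every gene rested on at least 186 reads in every library, so that counting error was small next to the spread between libraries.

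**Figure D1:**
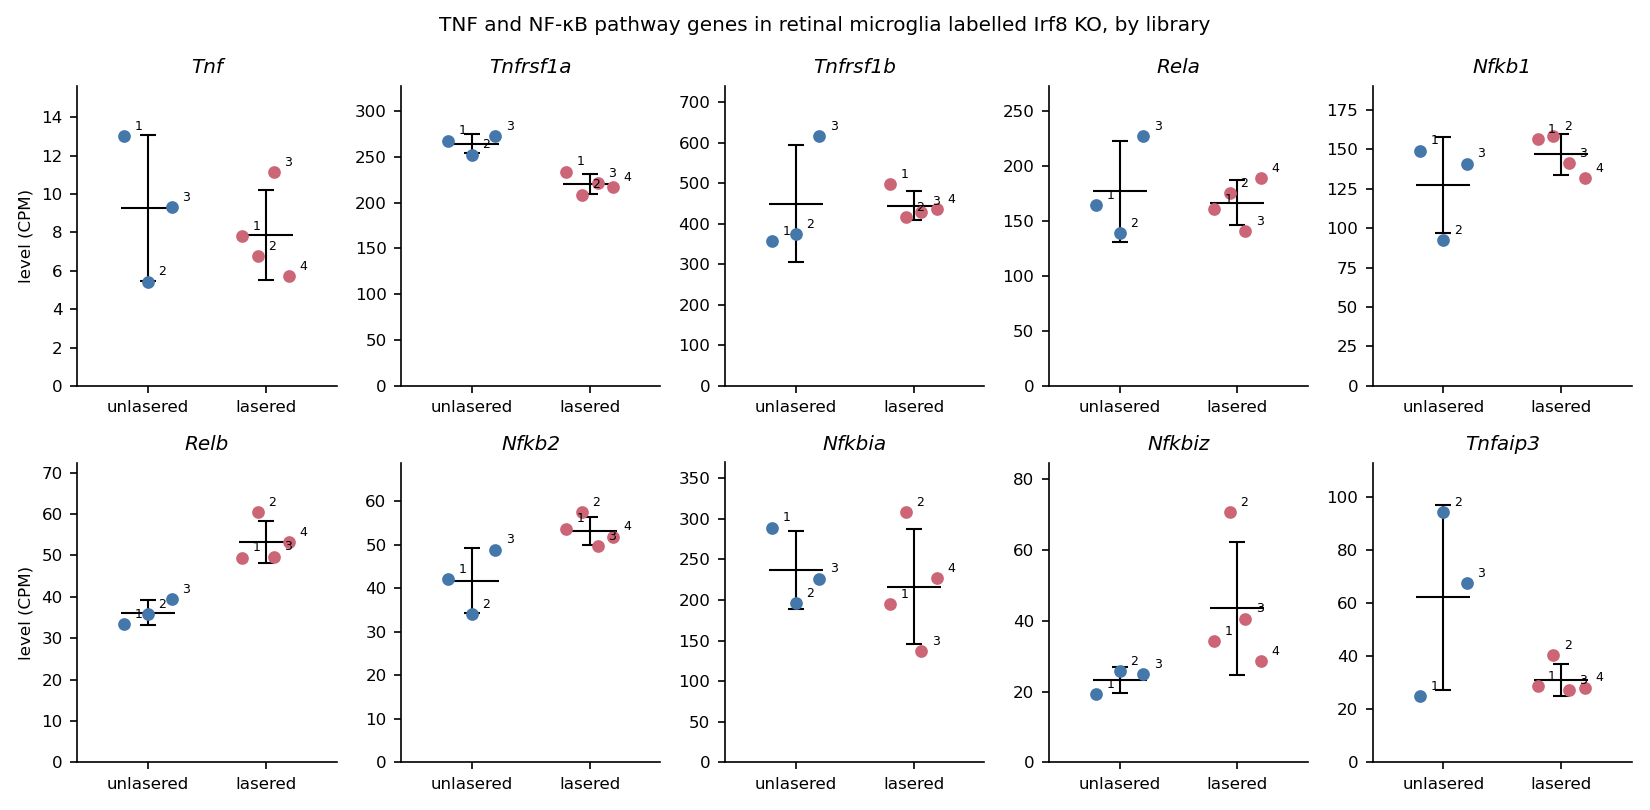
Levels of the 10 genes in CPM (y axes, linear and starting at 0) in the 3 unlasered and 4 lasered libraries; points are libraries, numbered by replicate, and bars give the mean ± SD. Relb, Nfkb2 and Nfkbiz were higher in every lasered library and Tnfrsf1a was lower, while the groups of the other 6 genes overlapped.

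The ligand gene Tnf (chr17:35199381-35202007, minus strand, GRCm38) was at a low level. It measured 13.02, 5.43 and 9.33 CPM in the unlasered and 7.79, 6.77, 11.1 and 5.74 CPM in the lasered libraries. The groups overlapped over almost their whole range, and the highest library was an unlasered sample. Its log2 fold change was -0.18 ± 0.30 (SE, adjusted p = 0.778, limma), and it became 0.08 without unlasered library 1. A difference in Tnf was thus not detectable against this spread.

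Of the receptor genes, Tnfrsf1a separated the groups and Tnfrsf1b did not; this contrast was examined through their ratio. Tnfrsf1a (chr6:125349362-125362484, plus strand) measured 267, 252 and 273 CPM in the unlasered and 234, 209, 221 and 217 CPM in the lasered libraries. Every lasered library was below every unlasered library and the spread within each group was narrow. A log2 fold change of -0.26 ± 0.10 (SE) resulted, yet the adjusted p of 0.175 missed the threshold. Tnfrsf1b (chr4:145213463-145246870, minus strand) measured 358, 375 and 616 CPM in the unlasered and 497, 416, 430 and 436 CPM in the lasered libraries. Unlasered library 3 stood above all others and the other unlasered libraries below all lasered ones, so the group means, 450 ± 145 (SD, n = 3) and 445 ± 36.1 CPM (SD, n = 4), were nearly equal. Its log2 fold change was 0.03 ± 0.19 (SE, adjusted p = 0.951), and its sign changed with the library left out.

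Within a library, the ratio of Tnfrsf1b to Tnfrsf1a reads was 1.34, 1.49 and 2.26 in the unlasered and 2.13, 1.99, 1.94 and 2.01 in the lasered samples. The lasered ratios lay close together, inside the range of the unlasered ones. The log2 ratio was 0.29 higher in the lasered libraries (two-sided exact permutation test, p = 0.286, where the smallest p that 3 against 4 libraries allow is 0.0571). Without unlasered library 3 the difference was 0.52.

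Among the NF-κB subunits, the genes of the canonical pair did not separate the groups. Rela (chr19:5637483-5648130, plus strand), which encodes the main activating subunit, measured 165, 139 and 227 CPM in the unlasered and 161, 176, 141 and 189 CPM in the lasered libraries. Nfkb1 (chr3:135584655-135691547, minus strand), which encodes a precursor processed to its DNA-binding partner, measured 149, 92.3 and 141 CPM in the unlasered and 156, 158, 141 and 131 CPM in the lasered libraries. The groups overlapped for both genes, with unlasered library 2 the lowest of its group. The log2 fold changes were -0.06 ± 0.18 for Rela and 0.23 ± 0.18 for Nfkb1 (SE, adjusted p = 0.874 and 0.494, limma). The value of Nfkb1 fell to 0.01 without unlasered library 2. The entry of Nfkb1 also holds reads listed jointly with the overlapping gene Gm43430, whose share cannot be separated.

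The genes of the non-canonical pair were both higher in all lasered libraries. Relb (chr7:19606217-19629438, minus strand) measured 33.3, 35.8 and 39.4 CPM in the unlasered and 49.5, 60.4, 49.7 and 53.1 CPM in the lasered libraries. The lowest lasered value exceeded the highest unlasered one by more than the SD of either group, with means of 36.2 ± 3.03 (SD, n = 3) and 53.2 ± 5.07 CPM (SD, n = 4). The log2 fold change of Relb was 0.54 ± 0.14 (SE, adjusted p = 0.0477, limma). The call lay close to the threshold: without unlasered library 1 or 2, or without lasered library 1, 2, 3 or 4, the adjusted p was between 0.0913 and 0.143, and without unlasered library 3 it was 0.0394. The direction held in all 16 alternative settings, of which 5 kept the call, with log2 fold changes from 0.48 to 0.62.

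Nfkb2 (chr19:46304320-46312385, plus strand) encodes the precursor that is processed when the non-canonical branch is active. It measured 42.1, 34.0 and 48.9 CPM in the unlasered and 53.7, 57.4, 49.6 and 51.8 CPM in the lasered libraries. The groups did not overlap, but the lowest lasered library and unlasered library 3 differed by less than 1 CPM. The log2 fold change of 0.36 ± 0.15 (SE) did not pass after adjustment (adjusted p = 0.205). Exons of Nfkb2 overlap those of Psd on the other strand, and the library kit does not mark strand. Psd itself was listed at 2.27 to 11.8 CPM and was highest in unlasered library 2, where Nfkb2 was lowest.

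**Figure D2:**
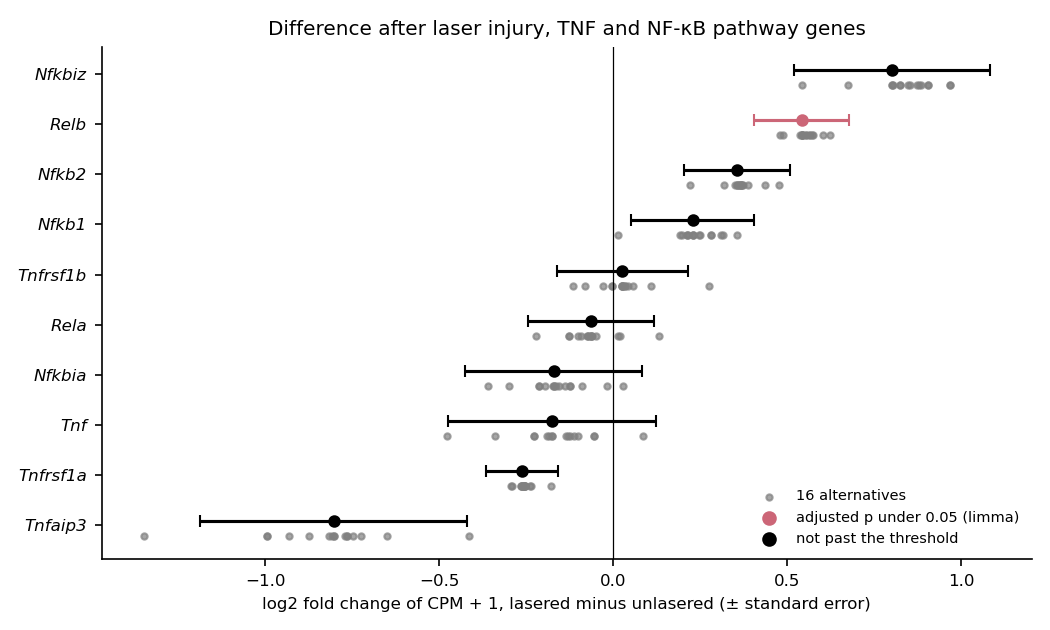
Log2 fold change of CPM + 1, lasered minus unlasered (x axis), for the 10 genes in order of their change; large points with bars give the estimate ± SE and grey points the 16 alternative settings, leave-one-out fits included. Relb, drawn in colour, was the gene past the threshold, and the grey points of Tnf, Tnfrsf1b, Rela and Nfkbia fall on both sides of 0.

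The ratio of Relb to Rela, singled out after the values were seen and therefore not tested, was 0.203, 0.258 and 0.173 in the unlasered and 0.307, 0.344, 0.353 and 0.281 in the lasered libraries. All lasered ratios were above all unlasered ratios, with a log2 difference of 0.62. The ratio of Nfkb2 to Nfkb1 was 0.283, 0.368 and 0.347 in the unlasered and 0.343, 0.362, 0.352 and 0.394 in the lasered libraries, and its groups overlapped.

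**Figure D3:**
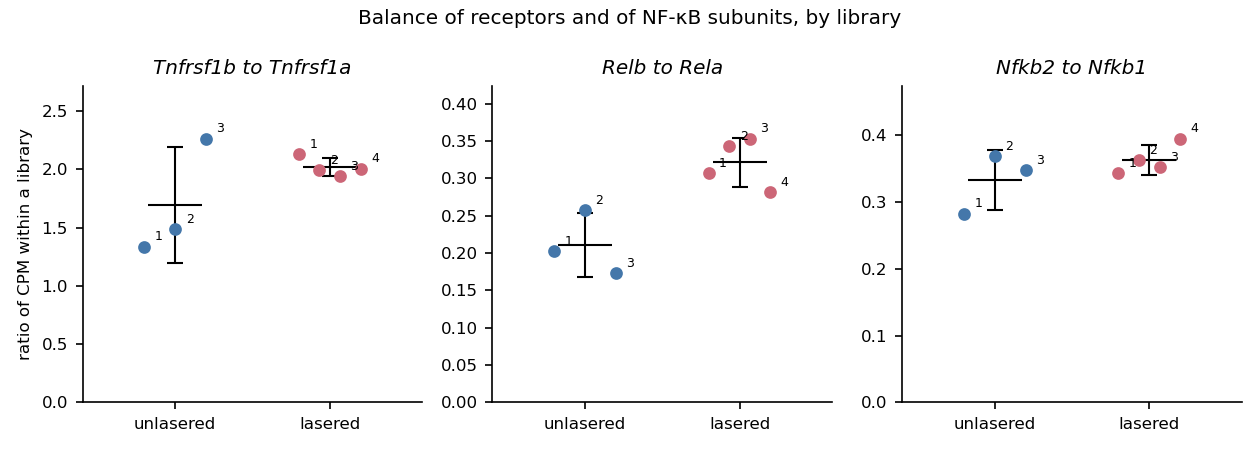
Ratios of CPM within a library (y axes, starting at 0) for the receptor genes and for the non-canonical over the canonical NF-κB subunit genes; points are the 3 unlasered and 4 lasered libraries, bars the mean ± SD. Ratios of Relb to Rela did not overlap between the groups, whereas those of Tnfrsf1b to Tnfrsf1a and of Nfkb2 to Nfkb1 did.

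The regulator genes Nfkbia, Nfkbiz and Tnfaip3 are themselves known targets of NF-κB, and so is Nfkb2. To show the sequence in which such control is written, the 250 bases before the annotated start of 1 RefSeq transcript each are given for the genes whose promoter window held a match to the NF-κB consensus on either strand, with the matching bases in capitals (RefSeq, GRCm38.p6, 5′ to 3′ on the strand of the gene). For Nfkb2 the window was chr19:46304487-46304736, plus strand. For Nfkbia it was chr12:55492648-55492897 and for Tnfaip3 chr10:19015411-19015660, both on the minus strand.
Nfkb2: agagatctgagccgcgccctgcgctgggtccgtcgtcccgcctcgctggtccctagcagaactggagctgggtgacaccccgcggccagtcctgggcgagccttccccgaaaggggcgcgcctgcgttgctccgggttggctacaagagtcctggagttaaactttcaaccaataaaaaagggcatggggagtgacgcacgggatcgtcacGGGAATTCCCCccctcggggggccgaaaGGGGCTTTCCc
Nfkbia: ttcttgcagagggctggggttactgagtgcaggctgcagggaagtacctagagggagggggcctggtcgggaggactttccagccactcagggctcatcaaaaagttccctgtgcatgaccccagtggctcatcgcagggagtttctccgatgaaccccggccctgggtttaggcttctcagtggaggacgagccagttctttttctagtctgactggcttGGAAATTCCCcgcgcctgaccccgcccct
Tnfaip3: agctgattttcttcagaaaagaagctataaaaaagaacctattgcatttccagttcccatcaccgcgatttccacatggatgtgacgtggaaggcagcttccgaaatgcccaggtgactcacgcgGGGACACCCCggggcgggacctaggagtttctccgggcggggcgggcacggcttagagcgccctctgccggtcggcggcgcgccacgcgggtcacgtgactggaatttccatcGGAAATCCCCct
A consensus match (GGGRNNYYCC, where R is A or G, Y is C or T and N is any base) was present in 5 of the 10 windows available for 7 of the genes. Several of the matching windows were alternative starts of Nfkb2, and by gene 3 of the 7 had a match. Over all genes, 7.25% of 32851 promoter windows of the same length had a match. The windows of Tnf, Tnfrsf1a, Tnfrsf1b and Rela held no consensus match, and those of Relb, Nfkb1 and Nfkbiz were not available. A match describes letters in this window and not a bound site.

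The 3 regulator genes Nfkbia, Nfkbiz and Tnfaip3 had fold changes of both signs, and 0 passed the threshold in limma, edgeR or voom. DESeq2 called Nfkbiz and Tnfaip3 (adjusted p = 0.0239 and 0.0447). Nfkbia (chr12:55489410-55492647, minus strand) encodes IκBα, which holds canonical dimers in the cytoplasm, and has the consensus match near its start shown above. It measured 289, 196 and 226 CPM in the unlasered and 195, 308, 137 and 227 CPM in the lasered libraries. The lasered libraries spread wider than the unlasered ones, with the highest and the lowest value of the series among them. Nfkbia had a log2 fold change of -0.17 ± 0.25 (SE, adjusted p = 0.745), which was 0.03 without lasered library 3.

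Nfkbiz (chr16:55811375-55838899, minus strand) encodes IκBζ, a nuclear IκB protein that is needed for a subset of secondary response genes. It measured 19.2, 25.7 and 24.9 CPM in the unlasered and 34.2, 70.5, 40.5 and 28.5 CPM in the lasered libraries. All lasered libraries were above all unlasered ones, with lasered library 2 far above the others. The log2 fold change of 0.80 ± 0.28 (SE) had an adjusted p of 0.127. Without lasered library 2 the log2 fold change was 0.54.

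Tnfaip3 (chr10:19000910-19015657, minus strand) encodes an ubiquitin-editing enzyme that shuts down TNF receptor signalling. The promoter window printed above held 2 stretches matching the consensus, while the other window available for this gene held none. Tnfaip3 measured 25.0, 94.2 and 67.6 CPM in the unlasered and 28.7, 40.3, 27.3 and 28.2 CPM in the lasered libraries. All lasered libraries lay within the range of the unlasered ones, which held both the lowest and the highest value of the series. For Tnfaip3 this gave a log2 fold change of -0.80 ± 0.38 (SE, adjusted p = 0.252). It was -1.35 (adjusted p = 0.0172) without unlasered library 1 and -0.41 (adjusted p = 0.592) without unlasered library 2. The unlasered libraries stood in the same order, 2, 3 and 1 from high to low, for Tnfaip3 and for the summed rod markers, and also for Nfkbiz, which was higher in the lasered libraries. The part of rod RNA in these values was not tested.

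The libraries did not differ evenly across the set. Lasered library 2 was the highest lasered library for 6 of the 10 genes: Nfkb1, Nfkb2, Relb, Nfkbia, Nfkbiz and Tnfaip3. Unlasered library 3 was the highest of its group for 5. Among the lasered libraries, library 2 also had the highest summed monocyte markers (250 CPM) and immediate early genes (1405 CPM). It had the lowest summed microglial markers (25030 CPM). The part of these levels in the values of the 10 genes was not tested.

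Compared per kilobase of exon, the genes fell into an abundant and a scarce set in both groups. Nfkbia was highest at 147 ± 29.6 CPM per kilobase in the unlasered (SD, n = 3) and 135 ± 44.3 in the lasered libraries (SD, n = 4), followed by Tnfrsf1b at 118 ± 37.9 and 116 ± 9.45, Tnfrsf1a at 102 ± 4.10 and 85.0 ± 4.04, and Rela at 57.6 ± 14.8 and 54.3 ± 6.71. Ranges of Nfkbia and Tnfrsf1b overlapped in both groups and those of Tnfrsf1b and Tnfrsf1a in the unlasered group, so their order is not settled there. The other 6 genes lay between 4.31 and 13.7 CPM per kilobase on average, and each overlapped with its neighbour in that order. Tnf was among them, at 5.65 ± 2.32 CPM per kilobase in the unlasered and 4.79 ± 1.43 in the lasered libraries. The place of Nfkb1 depends on the length used: its exons span 12061 bases in union but 4149 in the longest transcript, which moves its unlasered level from 10.6 to 30.7 CPM per kilobase.

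The wider pathway was described by 8 lists of 144 genes, of which 117 were tested; Tnfsf12 and Tnfsf13 were not analysed here. Of these, 9 rose and 2 fell at an adjusted p under 0.05 (limma), 7.69% and 1.71% of them, beside 3.86% and 3.07% of all genes tested. The median log2 fold change was 0.10, beside -0.01 over all genes tested. Without overlap between the groups, 21 of the 117 genes were higher and 6 lower, beside 10.4% and 10.7% of all genes tested. The lists were drawn up with earlier results of these data known, so these shares are descriptive and give no independent support.

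Among 9 genes for TNF release and mRNA control 0 were called by limma, edgeR, DESeq2 or voom, with 1 at an unadjusted p under 0.05. Their most abundant gene was Litaf, an endosomal protein linked to TNF expression, at 285 ± 23.1 CPM unlasered and 332 ± 17.4 CPM lasered (adjusted p = 0.268). Of 6 ligands of the TNF superfamily, Tnfsf8 rose, from 43.3 ± 16.6 (SD, n = 3) to 94.0 ± 19.2 CPM (SD, n = 4). Its log2 fold change was 1.15 ± 0.26 (SE, adjusted p = 0.0372). Among 12 further receptors 0 were called by limma and 1 each by edgeR and DESeq2, with 2 at an unadjusted p under 0.05. The most abundant, Tnfrsf11a, the receptor for RANK ligand, had a log2 fold change of 0.47 ± 0.22 (SE, adjusted p = 0.240) that reached an adjusted p of 0.0211 without unlasered library 3.

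Of 21 genes of the receptor complex and cell death, 1 was called by limma and 3 by DESeq2. Rbck1, a subunit of the linear ubiquitin ligase that is recruited to the TNF receptor, rose from 52.1 ± 7.89 (SD, n = 3) to 83.0 ± 7.71 CPM (SD, n = 4), a log2 fold change of 0.67 ± 0.14 (SE, adjusted p = 0.0305). Casp8, the initiator caspase of this complex, was at 126 ± 8.77 and 169 ± 16.4 CPM without overlap (adjusted p = 0.0801 with limma, 0.0425 with DESeq2). Of 12 IKK kinases and activators 0 were called by limma or edgeR and 1 by DESeq2, with 2 at an unadjusted p under 0.05. Of 11 further Rel and IκB genes 0 were called by limma, edgeR or DESeq2, and 0 had an unadjusted p under 0.05. Ikbkg, the regulatory IKK subunit, had a log2 fold change of -0.12 ± 0.14, and Rel, a subunit prominent in immune cells, of 0.14 ± 0.37 (SE, adjusted p = 0.674 and 0.865).

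Of 12 genes listed as negative regulators, 3 were called by DESeq2 and 1 by limma, Peli1, which fell. Whether Peli1 acts as a negative regulator in these cells was not tested. This ubiquitin ligase measured 149, 127 and 152 CPM in the unlasered and 91.8, 78.3, 95.3 and 102 CPM in the lasered libraries, all lower. Its log2 fold change was -0.63 ± 0.14 (SE, adjusted p = 0.0302). Itch, another ubiquitin ligase and the most abundant of the list, was at 237 ± 79.6 and 214 ± 29.1 CPM (adjusted p = 0.795).

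Of the target genes of NF-κB, the longest of the 8 lists, 7 of 34 tested rose and 1 fell (20.6% and 2.94%), beside 3.86% and 3.07% of all genes tested. This list was also drawn up with earlier results known, so its share is not an independent excess. The chemokine gene Ccl5 measured 2.59, 5.93 and 2.55 CPM in the unlasered and 30.6, 29.4, 15.5 and 14.6 CPM in the lasered libraries, and the chemokine gene Ccl4 11.99, 9.67 and 9.11 against 24.1, 33.9, 37.3 and 26.1 CPM. All lasered libraries were well above all unlasered ones for both genes. The log2 fold changes were 2.32 ± 0.34 for Ccl5 and 1.47 ± 0.20 for Ccl4 (SE, adjusted p = 0.00947 and 0.00749), and both calls held with each library left out. Il1rn, an antagonist of the interleukin receptor for Il1a and its relatives, rose by 1.90 ± 0.38 and the stress gene Gadd45b by 1.47 ± 0.28 on the log2 scale (SE, adjusted p = 0.0248 and 0.0216). Ccl2, Il1a and Marcksl1, named after their values were seen, also rose. Marcks, an actin-binding protein and the most abundant gene of the list, had a log2 fold change of -0.19 ± 0.11 (SE, adjusted p = 0.364). The gene that fell was Ier3, an immediate early gene also named after its value was seen, at 71.2, 109 and 73.0 CPM unlasered and 38.1, 28.9, 32.5 and 54.1 CPM lasered. Its groups did not overlap, and the log2 fold change was -1.13 ± 0.24 (SE, adjusted p = 0.0284).

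Leave-one-out fits were examined for the 8 called genes given with values, and for all of these except Ccl5 and Ccl4 leaving out some libraries ended the call: every library except unlasered 3 for Rbck1, all except unlasered 3 and lasered 4 for Tnfsf8, unlasered 1 and lasered 1, 2 and 3 for Peli1, unlasered 2 and lasered 1, 2 and 3 for Ier3, unlasered 2 and lasered 2 and 3 for Il1rn, and unlasered 2 and lasered 1 and 2 for Gadd45b. Their adjusted p without 1 library reached at most 0.0999 (Tnfsf8), 0.0947 (Rbck1), 0.0865 (Peli1), 0.0795 (Ier3), 0.0698 (Il1rn) and 0.0645 (Gadd45b).

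**Figure D4:**
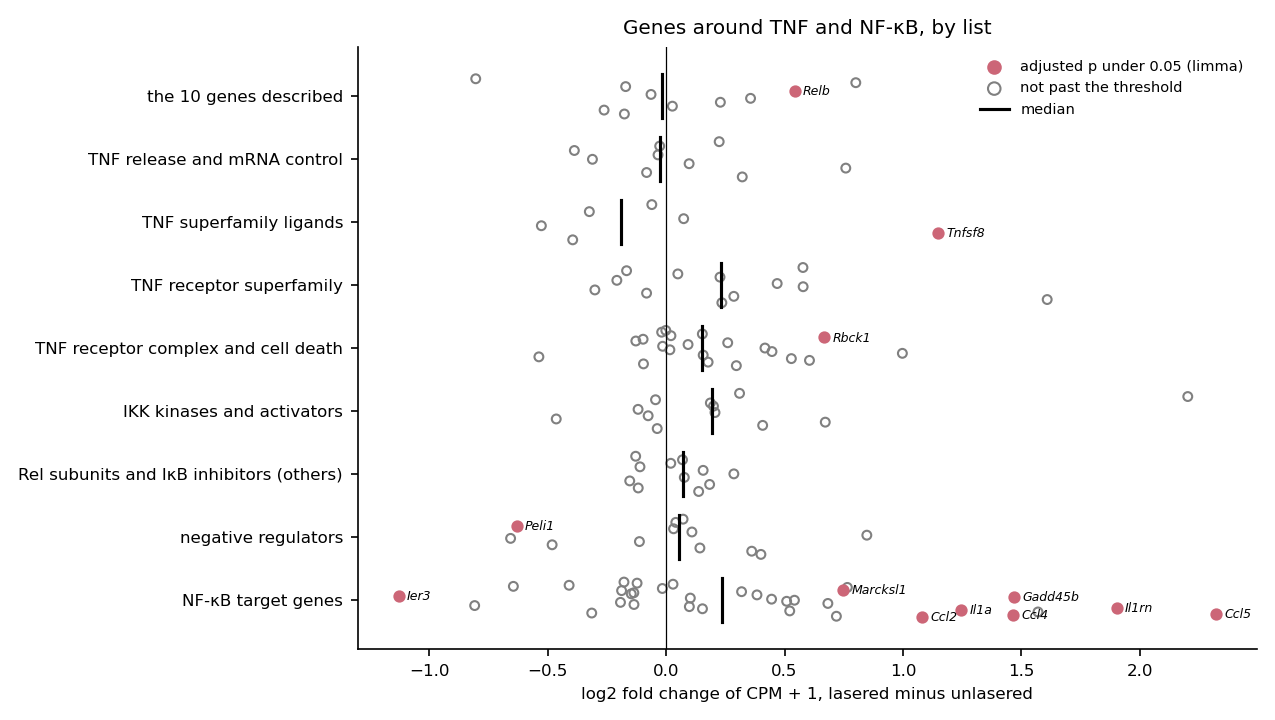
Log2 fold change of CPM + 1, lasered minus unlasered (x axis), for each tested gene of the 10 genes and of the 8 pathway lists (y axis); filled points passed an adjusted p of 0.05 and black bars are list medians. In the row of NF-κB target genes, the longest list, 7 of 34 genes rose and 1 fell, and in the upper row the filled point is Relb.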

How the data were processed

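RNA-seq of sorted retinal microglia was compared between 3 unlasered and 4 lasered libraries labelled Irf8 KO. The methods do not say whether pools shared litters, so p-values measure only the spread between these libraries. Per the study's methods the authors amplified RNA with a low-input kit and removed adapters (cutadapt) and duplicate reads (FastUniq). They mapped reads with Bowtie2 to the mouse genome, counted them per gene with HTSeq and normalised with DESeq2. The build, GRCm38, is named in the sample records. The kit does not mark strand, which the methods do not state. The deposited columns are headed TPM, but they are CPM: all values (100%) were whole multiples of the value of 1 read within 0.0001 CPM, and those reads summed to the library total. No further scaling was applied. Totals were 20427558 to 45919042 reads, and 3 reads equal 0.0653 to 0.147 CPM; such limits cover counting error only.

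The 17496 genes that reached 1 CPM in 3 or more libraries were tested on log2(CPM + 1) with limma 3.58.1 (R 4.3.3, trended and robust variances) and Benjamini-Hochberg adjustment over all of them; fold changes on this scale understate changes of low genes. The single ratio and the marker sums were tested by exact permutation (scipy 1.17.1), the sums with Benjamini-Hochberg adjustment over the marker lists. Alternatives were a pseudocount of 0.1, other filters (none, or a mean of at least 10 reads) and median-of-ratios scaling. In addition, edgeR 4.0.16, DESeq2 1.42.0 and voom were run on recovered reads. Further fits used libraries thinned to the smallest total, left out each library in turn, or added a replicate block without lasered library 4. Only the limma fit was checked on simulated data. The genes named are all 10 of the set, and from each of the 8 pathway lists the called genes, up to 4 with the largest change, and the most abundant gene; exceptions are marked. Genes and lists were chosen with earlier results of these data known. Gene positions and lengths are from the M21 annotation of GRCm38, and promoters from RefSeq. For 4492 genes the deposited values include reads listed jointly with overlapping genes.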

Additional observations from a re-analysis of the deposited data

Results flagged for a closer look

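The lasered group was examined for a sample far from the others in 41 genes, summed marker lists and gene ratios within a library. Chance gives such a sample in about 1 in 20 groups, and 3 were found. Tnfaip3 was at 40.3 CPM in lasered library 2 and at 27.3 to 28.7 CPM in the other lasered libraries. Ikbkg was at 87.3 CPM in lasered library 4 and at 106.5 to 107.5 CPM in the others. The summed erythrocyte markers were at 84.8 CPM in lasered library 1 and at 0.0269 to 0.668 CPM in the others.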

How the results depend on the processing

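Of the 10 genes, 0 passed with no filter on low values, with a mean of at least 10 reads, with voom and with thinned libraries (3, 4, 4 and 4 had an unadjusted p under 0.05), and 3 passed with DESeq2 (Relb, Nfkbiz and Tnfaip3). In fits without 1 library the count was 0 to 1, the 1 being Tnfaip3 without unlasered library 1 and Relb without unlasered library 3. Of the 117 further pathway genes, 11 passed as reported, 2 with no filter, 22 with DESeq2, and 2 to 14 without 1 library (2 without lasered 2, 3 without unlasered 2 or lasered 3, 4 without lasered 1, 6 without unlasered 1). Replicate numbers did not pair the libraries, since same-numbered deviations correlated at -0.183, -0.126 and -0.0234. The replicate block was fitted without lasered library 4, so it had fewer samples as well as more terms. With this block 0 of the 10 genes (2 at an unadjusted p under 0.05) and 0 pathway genes passed, and the receptor log2 ratio difference was 0.292. The part of the smaller fit in these counts was not tested. Over all genes, 1213 passed as reported, 676 higher and 537 lower. With no filter 212 rose and 173 fell, with DESeq2 1177 rose and 1141 fell, with the block 2 rose and 1 fell, and with median-of-ratios scaling 935 rose and 503 fell.

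Directions turned where values were near 0. Tnfrsf1b was at -0.0023 with edgeR, -0.0043 with DESeq2 and -0.11 to 0.28 without 1 library, and Rela at 0.019 with median-of-ratios scaling and -0.22 to 0.13 without 1 library. Without 1 library Tnf ranged from -0.48 to 0.085, Nfkbia from -0.36 to 0.028, Rel from -0.25 to 0.52, Itch from -0.26 to 0.15 and the receptor log2 ratio from 0.138 to 0.517. The cause of these changes was not tested, except that fits without 1 library have fewer samples and fits without a filter adjust over more genes. Adding jointly listed reads to each gene was not run, because the deposited values already hold them.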
